A study of Saccharomyces cerevisiae with 6 samples.

Results

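The transcripts of 69 genes that build the ribosome were compared between an ssy1KO strain, an ssy1T9 strain and wild-type (wt) Saccharomyces cerevisiae. The genes are those whose platform symbol is NOP, UTP, RRP, NOC, DBP, RPF or RLP followed only by a number. They made up 69 of the 5711 genes with a symbol on the arrays: 17 NOP, 18 UTP, 18 RRP, 3 NOC, 9 DBP, 2 RPF and 2 RLP genes, each read by 1 spot. The level measured on each array is the log2 ratio of one strain to another, so levels in a single strain, and levels of one gene against another, cannot be given.

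Per the study's design text, ssy1KO, ssy1T9 and wt all have the S288C background. SSY1 encodes the plasma membrane sensor of external amino acids, and the labels name the ssy1KO and ssy1T9 strains without describing either allele, the medium or the number of clones. Total RNA was hybridised on 6 dual-colour arrays. Each of the 3 pairs of strains (ssy1KO with wt, ssy1T9 with wt, and ssy1KO with ssy1T9) was hybridised on 2 arrays with Cy5 and Cy3 exchanged. These are called KO/wt, T9/wt and KO/T9 arrays 1 and 2. The labels do not say whether a pair's arrays hold separate cultures, so each p-value covers the array-to-array spread alone, and that spread may be technical.

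A ribosome is assembled from ribosomal RNA and ribosomal proteins in the nucleolus, and most of the factors that do this leave before the subunit is finished. UTP proteins form the small subunit processome, which folds and cleaves the precursor of the small subunit RNA around the U3 small nucleolar RNA. NOP, NOC, RPF and RLP proteins act mostly in nucleolar particles of the large or the small subunit, DBP proteins are DEAD-box RNA helicases, and several RRP proteins are subunits of the exosome, which trims RNA from its end. In budding yeast these genes are known for changing together with growth and nutrient supply.

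The median over genes was subtracted from each array, and a linear model across all 5711 genes gave each gene's log2 fold change with its standard error (SE). A gene was called higher or lower at a Benjamini-Hochberg adjusted p under 0.05 over all genes. The direction of the ratios is not stated and was read as likely from SSY1, whose transcript then lay below the other strain on each of the 4 arrays with ssy1KO. With that reading the log2 ratio of SSY1 was -1.65 and -1.10 for ssy1KO over wt and 0.22 and 0.36 for ssy1T9 over wt. It was -1.86 and -1.87 for ssy1KO over ssy1T9. Because SSY1 set the direction, it is no separate check of the labels.

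The fitted change was below 0 for 65 of the 69 ribosome assembly genes in ssy1KO over wt and for 68 in ssy1T9 over wt, and none was called higher. In ssy1KO, 33 of the 69 genes (47.8%) were called lower than in wt, where 10.5% of all genes tested were called lower and 13.8% were called higher. In ssy1T9, 40 of the 69 genes (58.0%) were called lower than in wt, against 12.1% of all genes called lower and 14.1% called higher. The changes were small. The median log2 fold change of the 69 genes was -0.24 in ssy1KO, against 0.0017 for all genes, and -0.25 in ssy1T9, against -0.0033 for all genes. Both mutants were set against the same wt channels through the model, so the counts for ssy1KO and ssy1T9 are not independent of each other.

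**Figure D1:**
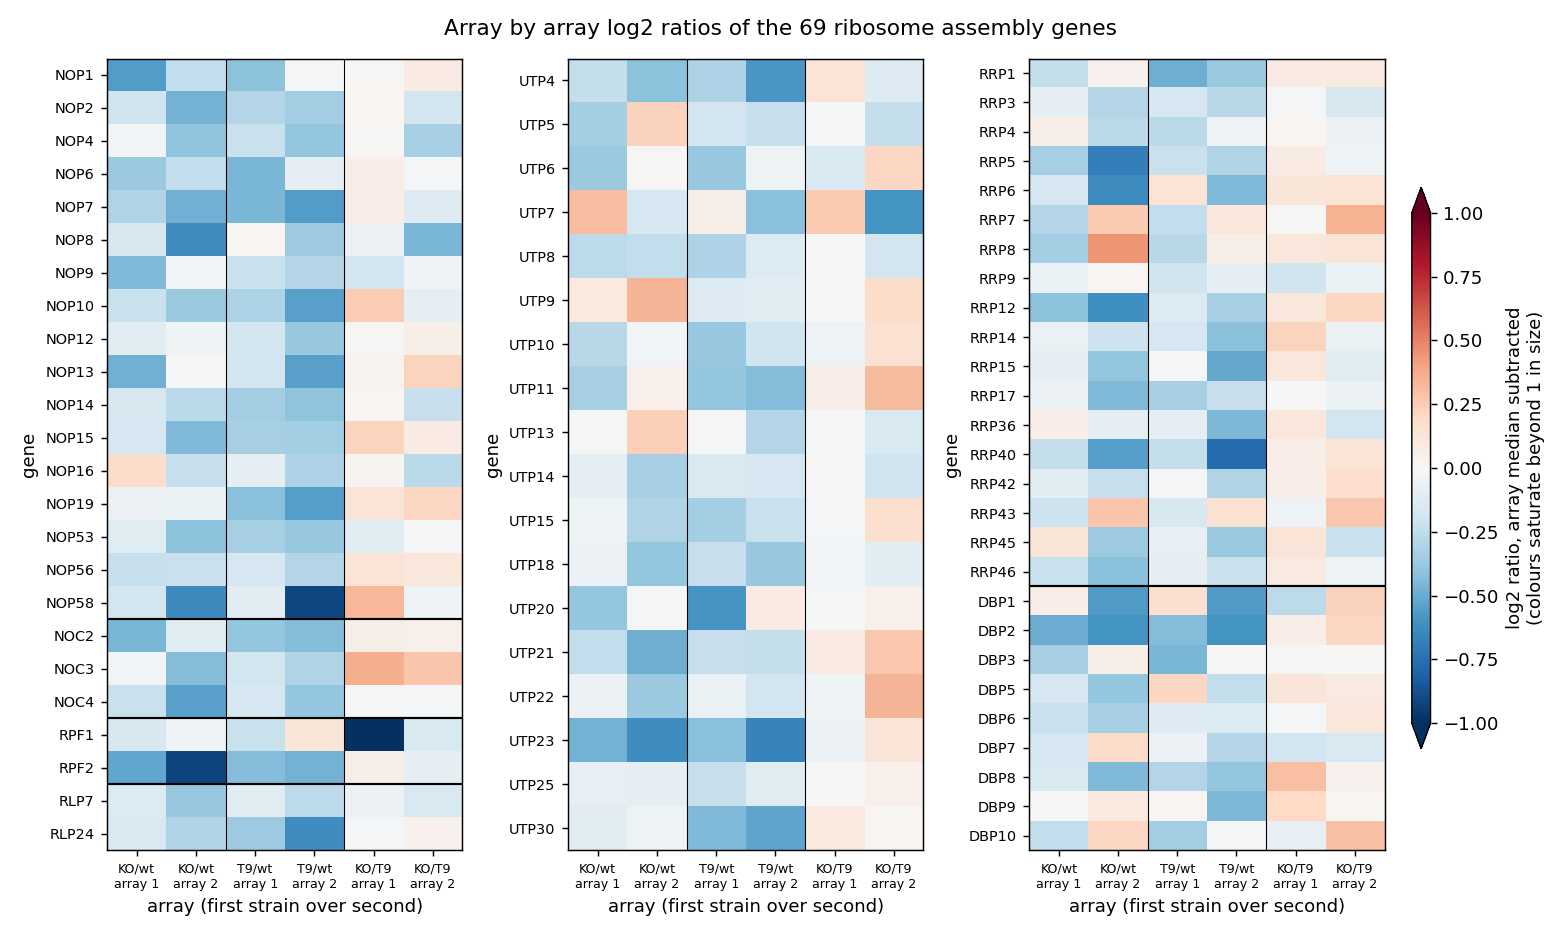
Centred log2 ratios of the 69 genes (rows, by family) on the 6 arrays (columns), with ssy1KO over wt, then ssy1T9 over wt, then ssy1KO over ssy1T9. Blue is lower and red higher in the strain named first, with the colour at its limit beyond a size of 1. The 4 columns against wt are mostly blue, while the columns between the mutants are mostly pale, apart from RPF1 on KO/T9 array 1 at -2.55.

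The direction was shared by the arrays of each pair. The median ratio of the 69 genes was -0.17 on KO/wt array 1 and -0.27 on KO/wt array 2. On the T9/wt arrays it was -0.22 and -0.31. In ssy1KO, 48 of the 69 genes (69.6%) lay below 0 on both KO/wt arrays, against 27.8% of all genes. In ssy1T9, 57 (82.6%) lay below 0 on both T9/wt arrays, against 29.5% of all genes. The SE of a fold change lay between 0.0761 and 0.111 for all of the 69 genes except RPF1, so a typical 95% interval reached 0.17 on the log2 scale, or 1.12-fold, to each side.

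The counts depend on single arrays, as do those of all genes. Over all 5711 genes, calls of lower in ssy1KO went from 597 to 255 without KO/wt array 1. In ssy1T9 they went from 691 to 383 without T9/wt array 1 and to 431 without T9/wt array 2. In ssy1KO the count called lower fell to 16 of 69 without KO/wt array 1, and in ssy1T9 it fell to 22 without T9/wt array 1 and to 26 without T9/wt array 2, where RPF1 was called higher. 10 of the 33 genes called in ssy1KO were called in each of the 6 fits that left out 1 array, namely DBP2, NOC4, NOP2, NOP7, NOP8, RPF2, RRP5, RRP40, UTP4 and UTP23. In ssy1T9 it was 19 of the 40, among them DBP2, NOP7, NOP58, RPF2, RRP40 and UTP23.

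A fall here means lower relative to the middle of all genes. Without centring, the median of all genes was 0.16 in ssy1KO and 0.17 in ssy1T9, and the median of the 69 genes was -0.08 in both. Centring subtracts the same value from every gene of an array, so leaving it out shifts all genes alike. The distance between the members and all genes, -0.24 in ssy1KO and -0.25 in ssy1T9, is therefore the same on both scales by construction. On that scale 4 of the 69 genes were called lower in ssy1KO (DBP2, NOP7, RPF2 and UTP23) and UTP9 was called higher, where 2.71% of all genes were called lower and 31.6% higher. In ssy1T9, 6 were called lower (DBP2, NOP7, NOP58, RPF2, RRP40 and UTP23) and RPF1 was called higher, where 3.08% of all genes were called lower and 32.2% higher. Without centring, the medians of the NOP, UTP, RRP, NOC, DBP and RLP families stayed below 0 in both mutants, between -0.15 (NOC) and -0.0050 (DBP) in ssy1KO and between -0.17 (NOC) and -0.03 (DBP) in ssy1T9. The median of the 2 RPF genes was -0.43 in ssy1KO and 0.10 in ssy1T9. Which of these scales is closer to the RNA content of the cells was not tested.

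**Figure D2:**
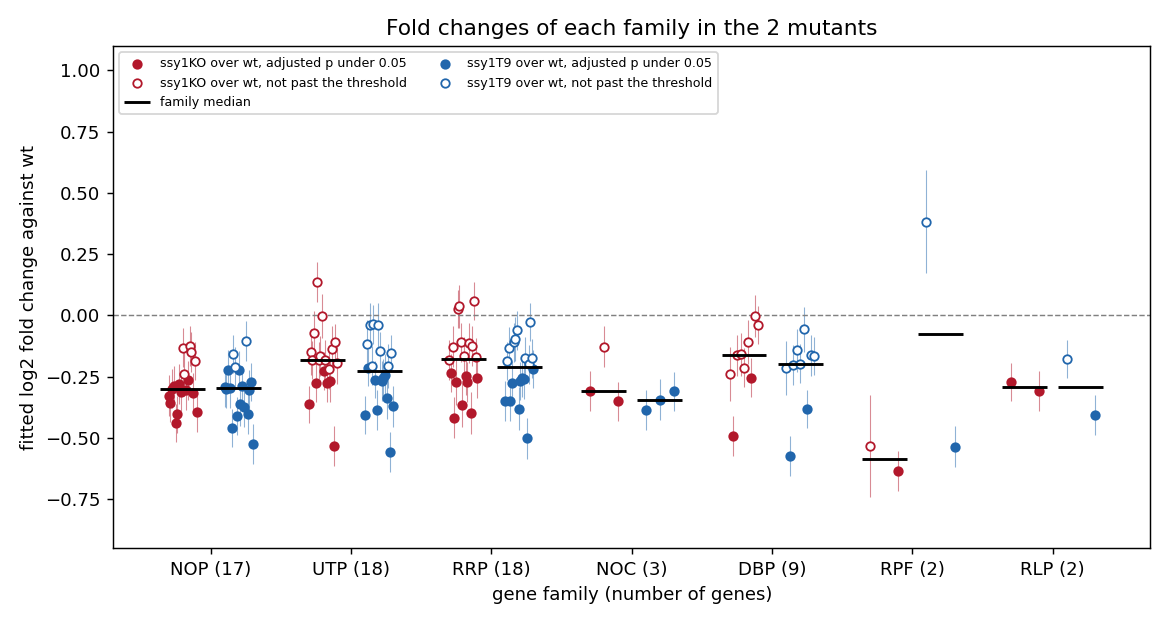
Fitted log2 fold change against wt for each of the 69 genes (points), by family, with ssy1KO left of ssy1T9. Filled points passed the adjusted p of 0.05, open points did not, thin bars are the SE and thick lines family medians. The NOP points all lie below 0 in both mutants, with medians of -0.30, and the RPF1 point in ssy1T9 lies at 0.38.

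The small subunit processome and its partners in small subunit assembly supplied 28 of the 69 genes. Of these, 12 were called lower in ssy1KO (median log2 fold change -0.19) and 15 in ssy1T9 (median -0.23). As shares these are 42.9% and 53.6%, against 10.5% and 12.1% of all genes. The ssy1KO count was 4 without KO/wt array 1, 5 without T9/wt array 1 and 7 without KO/T9 array 1, and the ssy1T9 count was 7 without T9/wt array 1. Over all 5711 genes, the ssy1KO calls of lower went from 597 to 255, 429 and 406 in the same fits. The ssy1T9 calls went from 691 to 383. Most of the small subunit genes belong to the UTP family, in which 6 of 18 were called lower in ssy1KO and 10 of 18 in ssy1T9, with medians of -0.18 and -0.23. That is 33.3% and 55.6% of the family. The family count in ssy1KO was 3 without KO/wt array 1, T9/wt array 1 or KO/T9 array 1. In ssy1T9 it was 4 without T9/wt array 1 and 6 without T9/wt array 2.

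UTP23, a processome protein with a PIN domain that acts in release of the snR30 small nucleolar RNA, had the largest fall among the UTP genes. Its log2 ratio (locus YOR004W) was -0.47 and -0.62 for ssy1KO over wt, and -0.42 and -0.67 for ssy1T9 over wt. All 4 arrays against wt showed it lower, and the values of the mutants lay over one another. The fitted change was -0.53 in ssy1KO (SE 0.0809, adjusted p = 2e-05), a level 1.45-fold lower, and -0.56 in ssy1T9 (adjusted p = 1.06e-05), 1.47-fold lower. UTP4, a subunit of the UtpA complex that binds the start of the precursor RNA, had -0.24 and -0.41 in ssy1KO, and -0.31 and -0.58 in ssy1T9. It fell by 0.36 in ssy1KO (adjusted p = 0.00109) and by 0.41 in ssy1T9 (adjusted p = 0.000306). UTP21, a subunit of the UtpB complex, had -0.25 and -0.49 in ssy1KO, and -0.23 and -0.24 in ssy1T9. Its fitted change was -0.27 in ssy1KO (adjusted p = 0.0243) and -0.34 in ssy1T9 (adjusted p = 0.00462). The ssy1KO call of UTP21 was lost without KO/wt array 1 (-0.27), KO/wt array 2 (-0.12) or KO/T9 array 1 (-0.27).

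Some other subunits of these complexes were called in neither mutant. UTP13, in UtpB with UTP21, had -0.01 and 0.24 in ssy1KO, and -0.02 and -0.29 in ssy1T9, with fitted changes of -0.0017 and -0.04 (adjusted p = 0.988 and 0.802). UTP9, in UtpA with UTP4, had the highest fitted value of the 69 genes in ssy1KO. Its log2 ratio was 0.10 and 0.34 in ssy1KO, and -0.13 and -0.11 in ssy1T9. Its fitted change was 0.14 in ssy1KO (adjusted p = 0.238) and -0.04 in ssy1T9 (adjusted p = 0.791). Of the 6 UtpA genes among the 69, 2 were called lower in ssy1KO and 3 in ssy1T9, and of the 4 UtpB genes among the 69, likewise 2 and 3. Subunits of these complexes without a UTP name are not in these counts. The subunits of 1 complex were not tested against one another.

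NOC4, the partner of Nop14 in small subunit assembly, had -0.22 and -0.54 in ssy1KO, and -0.17 and -0.39 in ssy1T9. It was below 0 on each array against wt and fell by 0.35 in ssy1KO (adjusted p = 0.00191) and by 0.31 in ssy1T9 (adjusted p = 0.00488). NOP14 itself had fitted changes of -0.30 in ssy1KO (adjusted p = 0.00757) and -0.29 in ssy1T9 (adjusted p = 0.0106). Its call was lost in ssy1KO without KO/wt array 1 (-0.35) or T9/wt array 1 (-0.26), and in ssy1T9 if either T9/wt array was left out (-0.20 without array 1, -0.26 without array 2). DBP8, a helicase of the small subunit precursor, had -0.15 and -0.44 in ssy1KO, and -0.29 and -0.39 in ssy1T9. Its fitted change was -0.25 in ssy1KO (adjusted p = 0.019) and -0.38 in ssy1T9 (adjusted p = 0.000679). The ssy1KO call of DBP8 was lost without KO/wt array 1 (-0.25), KO/wt array 2 (-0.20) or T9/wt array 1 (-0.25).

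Factors of the large subunit supplied 24 genes, of which 12 were called lower in ssy1KO (median -0.26) and 14 in ssy1T9 (median -0.24). As shares these are 50.0% and 58.3%, against 10.5% and 12.1% of all genes. The ssy1T9 count was 6 without T9/wt array 1 and 9 without T9/wt array 2. RPF2, a Brix-domain protein that brings the 5S RNA particle into the large subunit, had the largest fall of all 69 genes in ssy1KO. Its log2 ratio (locus YKR081C) was -0.52 and -0.92 for ssy1KO over wt, and -0.43 and -0.47 for ssy1T9 over wt. Between the mutants it was 0.06 and -0.09, so it was low on every array against wt and near 0 on both arrays without wt. The fitted change was -0.64 in ssy1KO (SE 0.0829, adjusted p = 2.11e-06), 1.55-fold lower, and -0.54 in ssy1T9 (adjusted p = 2.57e-05), 1.45-fold lower.

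NOP7, which forms a complex with Erb1 and Ytm1 in the precursor of the large subunit, had -0.30 and -0.48 in ssy1KO, and -0.46 and -0.56 in ssy1T9. Its fitted change (locus YGR103W) was -0.44 in ssy1KO (SE 0.0777, adjusted p = 0.000146), 1.36-fold lower, and -0.46 in ssy1T9 (adjusted p = 7.88e-05), 1.38-fold lower. NOC2 and NOC3 are nucleolar proteins that move the large subunit precursor towards the nucleoplasm. NOC2 had -0.46 and -0.11 in ssy1KO, and -0.39 and -0.43 in ssy1T9, with fitted changes of -0.31 (adjusted p = 0.00644) and -0.39 (adjusted p = 0.000822). Its ssy1KO call was lost without KO/wt array 1 (-0.24). NOC3 had -0.03 and -0.43 in ssy1KO, and -0.18 and -0.30 in ssy1T9. It was called lower in ssy1T9 (-0.34, adjusted p = 0.00363) and not in ssy1KO (-0.13, adjusted p = 0.298).

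The RLP proteins resemble ribosomal proteins and hold their place in the precursor of the large subunit. RLP24 had -0.15 and -0.30 in ssy1KO, and -0.36 and -0.62 in ssy1T9, with fitted changes of -0.31 (adjusted p = 0.00727) and -0.41 (adjusted p = 0.000587). RLP7 had -0.14 and -0.38 in ssy1KO, and -0.12 and -0.26 in ssy1T9, with fitted changes of -0.27 (adjusted p = 0.0109) and -0.18 (adjusted p = 0.0917). Both lay below 0 on all 4 arrays against wt. The ssy1KO call of RLP24 was lost without KO/T9 array 1 (-0.25), and that of RLP7 without KO/wt array 1 (-0.31) or KO/wt array 2 (-0.25). Among the ribosomal protein genes they resemble, RPL24A was called lower in both mutants (-0.34 in ssy1KO, adjusted p = 0.00567, and -0.44 in ssy1T9, adjusted p = 0.000494). Its call was lost in ssy1KO without KO/wt array 1 (-0.29) and in ssy1T9 without T9/wt array 2 (-0.28). The KO/wt arrays took opposite signs for RPL24A (-0.71 and 0.18) and for RPL24B (-0.58 and 0.19). On the T9/wt arrays both genes lay below 0 (-0.65 and -0.38 for RPL24A, -0.39 and -0.24 for RPL24B). RPL24B had -0.27 in ssy1KO (adjusted p = 0.0271) and -0.24 in ssy1T9 (adjusted p = 0.0503), and its ssy1KO call was lost in all leave-out fits but the one without KO/wt array 2 (-0.28 to -0.19 in the fits that lost it). In ssy1T9 it was called without KO/wt array 2 (-0.33) or KO/T9 array 2 (-0.29). RPL7A had -0.09 and -0.15 and RPL7B -0.23 and -0.23, none of them called. RPL7B was called lower in both mutants without T9/wt array 1 (-0.31 in ssy1KO and -0.38 in ssy1T9), and in ssy1KO without KO/T9 array 2 (-0.31). The authors' probes may not tell such near-identical pairs of ribosomal protein genes apart.

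The large subunit genes also held members with little change. NOP16, a factor of the large subunit precursor, had 0.18 and -0.23 in ssy1KO, and -0.10 and -0.31 in ssy1T9, with fitted changes of -0.13 and -0.10 (adjusted p = 0.292 and 0.388). The helicase gene DBP9 had 0.00 and 0.10 in ssy1KO, and 0.02 and -0.45 in ssy1T9, and its fitted changes of -0.0017 and -0.16 were not called (adjusted p = 0.988 and 0.167). Without KO/wt array 2 it was called lower in ssy1T9 (-0.23). None of DBP3, DBP6, DBP7 and DBP10, which are helicases of the large subunit too, was called in either mutant, and their fitted changes lay between -0.21 and -0.04. Calls of lower appeared for DBP3 in ssy1T9 without KO/T9 array 2 (-0.26), for DBP6 in ssy1KO without T9/wt array 2 (-0.23) or KO/T9 array 2 (-0.26), and for DBP7 in ssy1KO without KO/wt array 2 (-0.29).

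RPF1, another Brix-domain protein of the large subunit, was set apart by a single array. Its log2 ratio (locus YHR088W) was -0.16 and -0.04 for ssy1KO over wt, -0.22 and 0.12 for ssy1T9 over wt, and -2.55 and -0.15 for ssy1KO over ssy1T9. The gap of 2.40 between the KO/T9 arrays was the largest of all 5711 genes, while the arrays against wt placed RPF1 near 0 in both mutants. In the fit this gave -0.53 in ssy1KO (SE 0.21, adjusted p = 0.0668), 0.38 in ssy1T9 (adjusted p = 0.192) and -0.92 for ssy1KO over ssy1T9 (adjusted p = 0.0665). Without KO/T9 array 1 the values were -0.15, -0.0022 and -0.15. RPF1 was called lower in ssy1KO without KO/wt array 1 (-1.10), T9/wt array 2 (-0.29) or KO/T9 array 2 (-0.63), and called higher in ssy1T9 without T9/wt array 2 (0.88), all in fits that kept KO/T9 array 1. It was likewise called lower in ssy1KO than in ssy1T9 without T9/wt array 2 (-1.16) or KO/T9 array 2 (-1.11).

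Core proteins of small nucleolar particles, which carry the guide RNAs that place chemical marks on ribosomal RNA, were NOP1, NOP56 and NOP58 of the methylation guides and NOP10 of the pseudouridylation guides. In ssy1KO 3 of the 4 were called lower (median -0.32), and in ssy1T9 all 4 (median -0.35). Of all genes, 10.5% and 12.1% were called lower. NOP58 had -0.18 and -0.64 in ssy1KO, and -0.11 and -0.91 in ssy1T9, all below 0. The array of each pair with the mutant in Cy5 gave the larger fall, and in ssy1T9 the gap of 0.80 was the widest of the 69 genes between the T9/wt arrays. Its fitted change (locus YOR310C) was -0.40 in ssy1KO (SE 0.0808, adjusted p = 0.000752) and -0.53 in ssy1T9 (adjusted p = 2.33e-05), 1.44-fold lower. NOP10 had -0.22 and -0.37 in ssy1KO, and -0.32 and -0.54 in ssy1T9, with fitted changes of -0.31 (adjusted p = 0.0041) and -0.41 (adjusted p = 0.000266). NOP1, the methyltransferase itself, fell by 0.33 in ssy1KO (adjusted p = 0.00466) and by 0.29 in ssy1T9 (adjusted p = 0.00947). Without KO/wt array 1 none of the 4 was called in ssy1KO (NOP58 -0.36, NOP10 -0.30, NOP1 -0.26), and 2 were called in ssy1T9. The NOP1 call was also lost in ssy1KO without KO/wt array 2 (-0.29), and in ssy1T9 without KO/wt array 1 (-0.26), T9/wt array 1 (-0.30) or KO/T9 array 1 (-0.24).

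Over the whole NOP family, which spans these roles, 12 of 17 genes were called lower in ssy1KO and 14 of 17 in ssy1T9, with medians of -0.30 in each. As shares these are 70.6% and 82.4%, against 10.5% and 12.1% of all genes. All 17 had fitted changes below 0 in both mutants, between -0.44 (NOP7) and -0.13 (NOP16) in ssy1KO and between -0.53 (NOP58) and -0.10 (NOP16) in ssy1T9. The ssy1KO count was 5 without KO/wt array 1. The ssy1T9 count was 9 without KO/wt array 1, 7 without T9/wt array 1 and 8 without T9/wt array 2.

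The exosome genes were mixed. Of the 7 (RRP4, RRP6, RRP40, RRP42, RRP43, RRP45 and RRP46), 3 were called lower in each mutant, namely RRP6, RRP40 and RRP46, with medians of -0.17 in ssy1KO and -0.20 in ssy1T9. That is 42.9% of the 7, against 10.5% of all genes in ssy1KO and 12.1% in ssy1T9. RRP40, which encodes a cap subunit, had -0.24 and -0.55 in ssy1KO, and -0.24 and -0.77 in ssy1T9. It fell by 0.40 in ssy1KO (adjusted p = 0.00102) and by 0.50 in ssy1T9 (adjusted p = 6.93e-05). RRP43, which encodes a ring subunit, had -0.21 and 0.28 in ssy1KO, and -0.16 and 0.15 in ssy1T9, so its arrays took opposite signs in each pair. Its fitted changes were 0.06 and -0.03 (adjusted p = 0.623 and 0.833). The count was 1 in ssy1KO without KO/wt array 1 or 2, and 1 in ssy1T9 in each leave-out fit but the one without T9/wt array 1.

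RRP5 and RRP12 act on both subunits, RRP5 as a large RNA-binding protein of the early precursor and RRP12 in export. RRP5 had -0.33 and -0.68 in ssy1KO, and -0.22 and -0.30 in ssy1T9, and fell by 0.42 in ssy1KO (adjusted p = 0.000508) and by 0.35 in ssy1T9 (adjusted p = 0.00257). RRP12 had -0.41 and -0.61 in ssy1KO, and -0.14 and -0.33 in ssy1T9. Its fitted change was -0.37 in ssy1KO (adjusted p = 0.00393) and -0.38 in ssy1T9 (adjusted p = 0.00248). Both were below 0 on every array against wt, and the ssy1KO call of RRP12 was lost without KO/wt array 1 (-0.30) or KO/wt array 2 (-0.23). In the RRP family as a whole, 8 of 18 were called lower in ssy1KO (median -0.18) and 9 of 18 in ssy1T9 (median -0.21). As shares these are 44.4% and 50.0%, against 10.5% and 12.1% of all genes. The ssy1KO count was 3 without KO/wt array 1 or KO/wt array 2 and 4 without KO/T9 array 1, and the ssy1T9 count was 4 without T9/wt array 1 and 5 without T9/wt array 2.

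Of the 9 DEAD-box helicases, 2 were called lower in each mutant, DBP2 and DBP8, with family medians of -0.16 in ssy1KO and -0.20 in ssy1T9. That is 22.2% of the family, against 10.5% of all genes in ssy1KO and 12.1% in ssy1T9. DBP2, a helicase best known from messenger RNA metabolism, had the largest fall of all 69 genes in ssy1T9. Its log2 ratio (locus YNL112W) was -0.50 and -0.60 for ssy1KO over wt, and -0.43 and -0.60 for ssy1T9 over wt. The 4 values were close to each other, and the fitted change was -0.49 in ssy1KO (SE 0.0803, adjusted p = 5.34e-05), 1.41-fold lower, and -0.57 in ssy1T9 (adjusted p = 6.31e-06), 1.49-fold lower. DBP1, a helicase of translation initiation, had 0.07 and -0.57 in ssy1KO, and 0.16 and -0.57 in ssy1T9. The sign differed within each pair of arrays, and the fitted changes of -0.24 and -0.21 were not called (SE 0.111, adjusted p = 0.124 and 0.165). DBP1 was called lower in ssy1KO without KO/T9 array 2 (-0.37) and in ssy1T9 without KO/T9 array 1 (-0.34). DED1, its paralog, had -0.08 in ssy1KO and -0.17 in ssy1T9 (adjusted p = 0.526 and 0.148), and was called in ssy1T9 without KO/wt array 2 (-0.22). The DBP count in ssy1KO was 1 without KO/wt array 1 or T9/wt array 1, and 5 without KO/T9 array 2.

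The direct comparison of the mutant strains called none of the 69 genes, against 0.298% of all genes. The median log2 fold change of ssy1KO over ssy1T9 was 0.03. URA3 had the highest fitted value of all genes in this comparison, at 2.16. Effects of the alleles and of other differences between the strains cannot be told apart here. The counts that follow are of the 69 genes. At an unadjusted p under 0.05 there were 7 genes (10.1%, against 5.43% of all genes): NOC3, NOP19, UTP9, UTP11 and UTP30 on the side higher in ssy1KO, and NOP8 and RPF1 on the side lower in ssy1KO. Apart from RPF1, fitted differences lay between -0.25 (NOP8) and 0.25 (NOP19), and their 95% intervals between -0.40 and 0.42. At this precision a difference of more than 1.34-fold between the mutants lies outside the interval of each of these 68 genes.

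**Figure D3:**
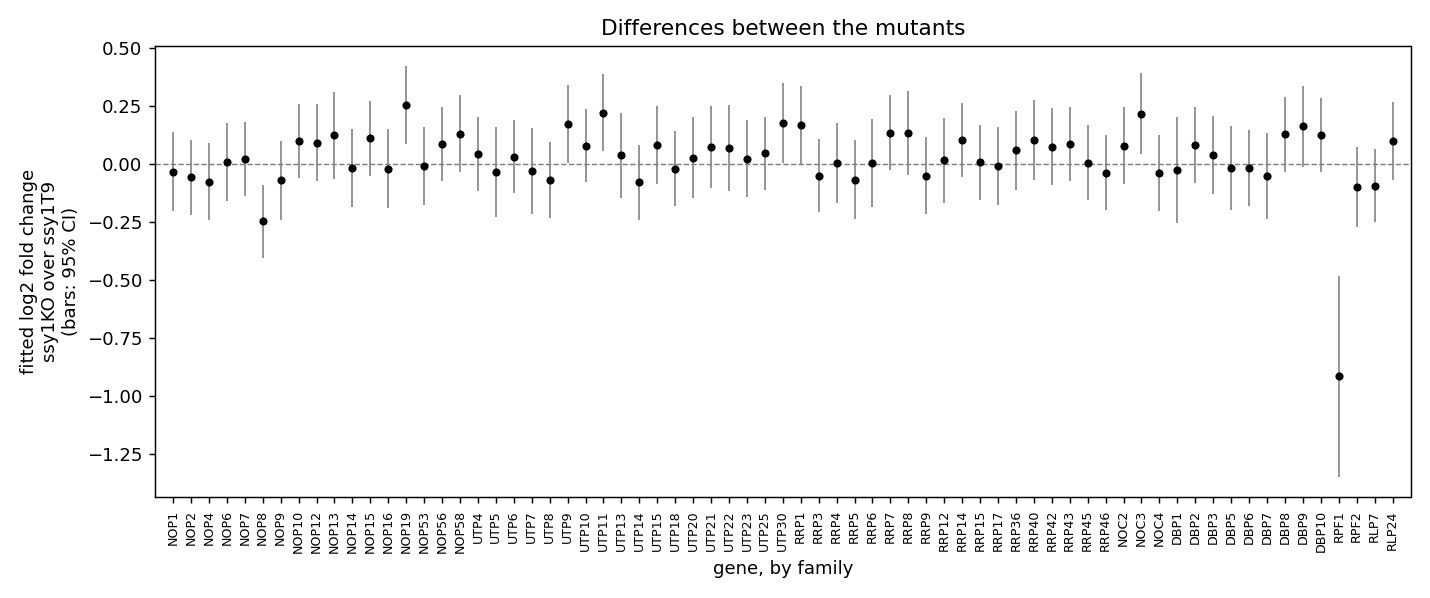
Fitted log2 fold change of ssy1KO over ssy1T9 for each of the 69 genes (points, by family), with 95% intervals of the fit as bars. The points lie between -0.25 and 0.25, apart from RPF1 at -0.92.

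The genes at the edges of that range, NOP8, NOP19 and UTP11, were chosen after their values were seen. NOP8, a large subunit factor, had -0.16 and -0.62 in ssy1KO over wt, 0.02 and -0.36 in ssy1T9 over wt, and -0.06 and -0.46 in ssy1KO over ssy1T9. It was called lower in ssy1KO (-0.40, adjusted p = 0.000323) and not in ssy1T9 (-0.16, adjusted p = 0.14), but the difference between the mutants was not called (-0.25, adjusted p = 0.457). NOP19, a small subunit factor, had -0.06 and -0.07 in ssy1KO, -0.42 and -0.55 in ssy1T9, and 0.13 and 0.21 for ssy1KO over ssy1T9. It was called lower in ssy1T9 (-0.40, adjusted p = 0.000574) and not in ssy1KO (-0.15, adjusted p = 0.197), and its difference of 0.25 was not called (adjusted p = 0.485). UTP11 had the same pattern, with -0.39 in ssy1T9 (adjusted p = 0.000858), -0.17 in ssy1KO (adjusted p = 0.147) and an uncalled difference of 0.22 (adjusted p = 0.685). A gene called in 1 mutant and not in the other is therefore not shown to differ between them.

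Genes of the same pathway that carry other names were counted from lists chosen by textbook role. Of 32 processome partners, 19 were called lower in each mutant, with medians of -0.26 in ssy1KO and -0.30 in ssy1T9. This list also held GAR1, NHP2 and CBF5, core proteins of the pseudouridylation guides like NOP10. NHP2 and CBF5 were called lower in both mutants and GAR1 in neither (-0.12 in ssy1KO, adjusted p = 0.312, and -0.025 in ssy1T9, adjusted p = 0.865). DHR2, an RNA helicase of the small subunit, had -0.57 in ssy1KO (adjusted p = 6.28e-06) and -0.43 in ssy1T9 (adjusted p = 0.00021), and SAS10, a processome protein, had -0.51 and -0.46. Of 43 measured large subunit factors, 20 were called lower in ssy1KO and 25 in ssy1T9, with medians of -0.23 and -0.26. RSA4, a late nucleolar factor, had -0.48 and -0.51, and CGR1 had -0.47 and -0.48. Of 14 factors of late small subunit maturation, 9 were called lower in ssy1KO and 12 in ssy1T9, both with medians of -0.29. TSR2, a chaperone of ribosomal protein S26, had -0.47 and -0.51, and RIO2, an atypical protein kinase, had -0.44 and -0.39. No gene of these lists was called higher. Of all genes, 10.5% in ssy1KO and 12.1% in ssy1T9 were called lower. Without centring, 5 of the processome partners were called lower in each mutant, 6 of the large subunit factors in ssy1KO and 4 in ssy1T9, and 2 of the late small subunit factors in ssy1KO and 1 in ssy1T9. On that scale REH1 of the large subunit list and HRR25 of the late small subunit list were called higher in both mutants. The ssy1T9 call of RIO2 was lost (-0.21). Of all genes, 2.71% in ssy1KO and 3.08% in ssy1T9 were called lower without centring, and 31.6% and 32.2% higher. Without KO/wt array 1 the ssy1KO counts were 9 of the processome partners, 10 of the large subunit factors and 5 of the late small subunit factors. Without T9/wt array 1 the ssy1T9 counts were 12, 11 and 5, and the late small subunit count in ssy1T9 was 7 without KO/wt array 1 or T9/wt array 2.

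**Figure D4:**
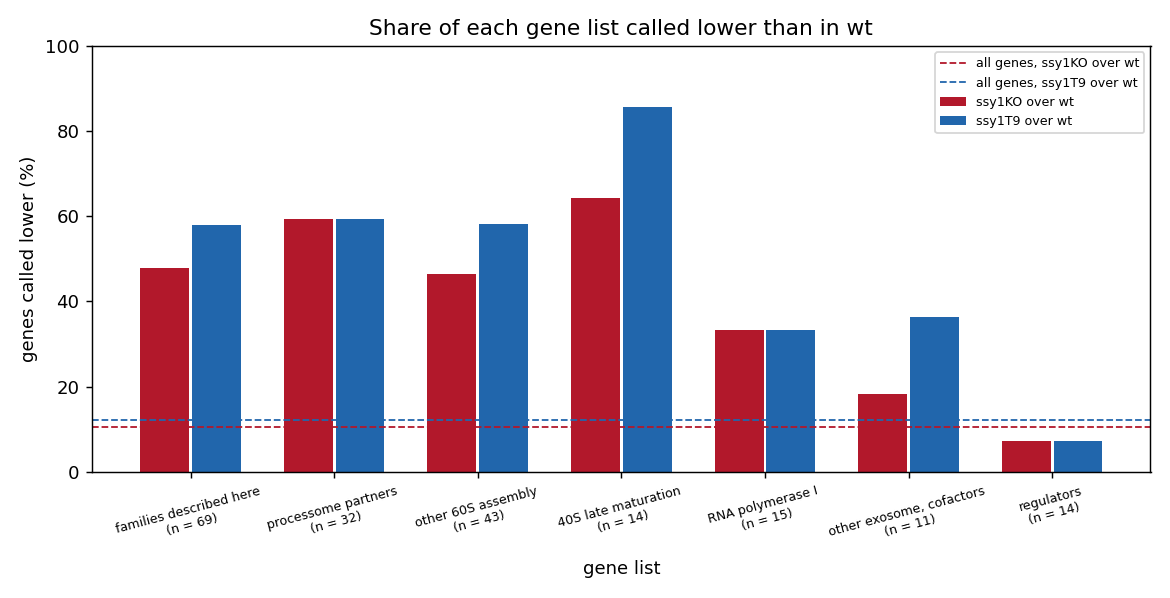
Share of genes called lower than in wt (%), for the 69 genes and for each pathway list, with ssy1KO bars left of ssy1T9 bars. Dashed lines mark the share of all genes called lower, 10.5% in ssy1KO and 12.1% in ssy1T9. The assembly lists stand at 46.5% to 85.7%, and the regulators at 7.14% in both mutants. Between them, RNA polymerase I stands at 33.3% in both mutants, and the other exosome genes and cofactors at 18.2% in ssy1KO and 36.4% in ssy1T9.

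RNA polymerase I, which transcribes the precursor of ribosomal RNA, was measured through 15 genes, 5 of them called lower in each mutant, with medians of -0.14 in ssy1KO and -0.17 in ssy1T9 (0.02 and 0.0050 without centring). With centring that is 33.3% of the list, against 10.5% of all genes in ssy1KO and 12.1% in ssy1T9. Without centring, 2 were called lower and 2 higher (RPA14 and RRN9) in ssy1KO, and 4 lower and 1 higher (RPA14) in ssy1T9. Of all genes, 2.71% and 3.08% were then called lower, and 31.6% and 32.2% higher. RRN5, a subunit of the upstream activating factor of RNA polymerase I, had the largest changes of the 15 genes. It had -0.65 in ssy1KO (adjusted p = 1.51e-06) and -0.65 in ssy1T9 (adjusted p = 1.63e-06). RPA34, a subunit of the enzyme, had -0.43 (adjusted p = 0.000209) and -0.63 (adjusted p = 9.28e-07). Of 11 exosome genes and cofactors named otherwise, 2 were called lower in ssy1KO and 4 in ssy1T9, led by MTR3, a ring subunit, at -0.49 and -0.52. These are 18.2% and 36.4% of the list, against 10.5% and 12.1% of all genes. The medians of these 11 genes were -0.13 in ssy1KO and -0.17 in ssy1T9 (0.03 and 0.0067 without centring, where 1 was called lower in each mutant). The ssy1KO count was 1 without KO/wt array 1, T9/wt array 1 or 2, or KO/T9 array 1. The ssy1T9 count was 1 without KO/wt array 1 or KO/T9 array 1 and 2 without T9/wt array 1 or 2. MPP6, an exosome cofactor, was next with -0.26 in ssy1KO (adjusted p = 0.0206) and -0.24 in ssy1T9 (adjusted p = 0.0267), and its ssy1KO call was kept only in the leave-out fit without KO/wt array 2. The fits that lost the MPP6 call gave -0.26 to -0.22 in ssy1KO and -0.25 to -0.18 in ssy1T9, and without centring it was called in neither (-0.10 in ssy1KO and -0.07 in ssy1T9).

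The medians of 14 regulators of ribosome genes were -0.02 in ssy1KO and 0.02 in ssy1T9. Without centring they were 0.14 and 0.19, where all genes had medians of 0.16 and 0.17. With centring none was called higher, and 1 (7.14%) was called lower in each mutant, against 10.5% and 12.1% of all genes. That gene was TOD6, a repressor that binds promoters of ribosome assembly genes. It had -0.32 in ssy1KO (adjusted p = 0.00576) and -0.37 in ssy1T9 (adjusted p = 0.00146). Its call was lost in ssy1KO without KO/wt array 1 (-0.26) and in ssy1T9 without T9/wt array 1 (-0.34), and in both mutants without centring (-0.16 in ssy1KO and -0.20 in ssy1T9). TOR2, a kinase of the growth-controlling TOR complexes, had 0.14 in ssy1KO and 0.17 in ssy1T9 and was not called, but without centring it was called higher in both (0.30 and 0.34). On that scale no regulator was called lower, and DOT6 (0.37), STB3 (0.29) and TCO89 (0.28) were called higher in ssy1T9 beside it. The regulators called higher were 1 of 14 in ssy1KO and 4 of 14 in ssy1T9, against 31.6% and 32.2% of all genes. Transcript levels of these regulators say nothing of their activity.

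On the R64 gene map RRP15, a large subunit factor, and NOC4 of the small subunit are convergent neighbours. RRP15 had -0.25 in each mutant (adjusted p = 0.0223 in ssy1KO and 0.0179 in ssy1T9), and both genes were called lower in both mutants. The ssy1KO call of RRP15 was lost without KO/wt array 1 (-0.24), KO/wt array 2 (-0.26), T9/wt array 2 (-0.22) or KO/T9 array 1 (-0.22), and its ssy1T9 call without KO/wt array 1 (-0.25), T9/wt array 1 (-0.30) or T9/wt array 2 (-0.20). UTP13 lies beside RSA3 and IFH1, and none of them was called in either mutant. RSA3 had 0.0067 in ssy1KO and -0.17 in ssy1T9, where it was called without KO/wt array 2 (-0.25), and IFH1 had 0.06 and -0.02. DBP8 and its same-strand neighbour NMD3 (-0.29 in ssy1KO and -0.24 in ssy1T9) were called lower in both mutants. The divergent neighbours RRP3 and SSF1 were both called lower in ssy1KO, and only SSF1 in ssy1T9. The ssy1KO call of RRP3 was kept in 1 of 6 leave-out fits. In the pairs UTP9 with RIX1 and RPF1 with GAR1, no gene was called in either mutant.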

How the data were processed

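The authors' deposited table holds 1 log ratio per spot and array, taken here as log2. Its log base, direction, scanner, background correction and normalization were not given in the sources used, and the direction, set by SSY1, is likely. Folds rest on base 2. Of 7744 rows, 6116 had 1 gene symbol in the platform annotation, 0 had several and 1628 had none here. R64 names replaced older symbols (6111 rows matched) and spots of a gene were averaged, giving 5711 genes, with 0 missing values.

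Arrays were median-centred. All 6 arrays entered 1 limma fit (version 3.58.1, R 4.3.3, with 3 residual and 20.7 prior degrees of freedom) by lmFit and eBayes, whose terms were a dye effect per gene, ssy1KO over wt and ssy1T9 over wt. Tests were two-sided, adjusted by Benjamini-Hochberg over all genes, and the number of arrays limits precision. The code was tested on simulated data.

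The 69 genes, the pathway lists and the roles were chosen with earlier results of these data known. Named per family were the 3 genes with the largest mean change over both mutants and the 1 with the smallest, or all in families of 3 or fewer, plus the 2 leading genes per pathway list and the paralogs of RLP7, RLP24 and DBP1. NOP1, NOP14, UTP9, UTP11, NOP8, NOP19, the uncalled helicases, the neighbouring genes and the pathway genes called higher without centring were added after their values were seen. A planned motif search in promoters was not run. No dim-spot filter could be set from log ratios, and slide and scan batches were not used here.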

Additional observations from a re-analysis of the deposited data

How the results depend on the processing

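The 23 genes named by the rule give 69 fold changes and, over the alternatives, 897 values: 784 stayed on the same side of the threshold, 102 called ones were no longer called, 11 uncalled ones became called and 0 called ones changed sign. The 784 include many uncalled results that stayed uncalled, among them most of those between the mutants, where the main fit called none of the 69 genes. They therefore do not measure how stable the calls were. An alternative that took the median of a gene's spots could hardly move these genes, each read by 1 spot. Without centring, 5 of the 69 genes were called in ssy1KO, 7 in ssy1T9 and 1 (RPF1) between the mutants, and the medians were -0.0767 in ssy1KO and -0.0817 in ssy1T9. Without the dye intercept, 17 and 26 were called, where 286 and 343 of all 5711 genes were called lower. With arrays scaled to one spread, 19 were called in ssy1KO, where 374 of all genes were called lower. In a test against a change of 1.2-fold, 2 were called in ssy1KO (RPF2 and UTP23) and 4 in ssy1T9 (DBP2, NOP58, RPF2 and UTP23). Of all genes, that test called 80 lower in ssy1KO and 105 in ssy1T9. From the 2 arrays of a pair alone, limma called 0 of the 69 genes in ssy1KO and 0 in ssy1T9. Of all genes, 47 and 25 were then called lower. Among the 69 genes, 13 and 25 had an unadjusted p under 0.05, and 62 and 69 lay below 0. That fit has fewer arrays, and the cause of the other shifts was not tested. Leaving out each array in turn gave 16 to 38 calls in ssy1KO, 22 to 40 in ssy1T9 and 0 to 1 between the mutants, with medians of -0.24 to -0.22, -0.26 to -0.24 and 0.03 to 0.05. No paired analysis was possible because the replicate numbers only name the arrays of each pair. With 6 arrays, a typical 95% interval for 1 gene reached 1.12-fold to each side.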
